A study of Mus musculus with 24 samples.

Results

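The 41 mouse genes described here are all the protein-coding genes whose symbols are those of the Wnt ligands, the Frizzled receptors (Fzd) and 3 families of secreted modulators: the secreted Frizzled-related proteins (Sfrp), the Dickkopf proteins (Dkk) and the R-spondins (Rspo). Members were chosen by symbol, out of 55471 genes in the count tables, with no threshold on a measured value. They comprise 19 Wnt, 10 Fzd, 4 Sfrp, 4 Dkk and 4 Rspo genes. Of these, 26 passed a filter on low counts and were tested (11 Wnt, 9 Fzd, 3 Sfrp, 1 Dkk and 2 Rspo), and 15 did not.

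RNA-seq was done on mouse embryonic fibroblasts (MEFs) of 4 kinds: wild type (WT), LKB1 knockout (KO), and the LKB1/CRTC2 knockout clones A1 and A2 (DKO_A1 and DKO_A2). LKB1 is a kinase and tumor suppressor encoded by Stk11, and CRTC2 is a coactivator of the transcription factor CREB. Each kind was left untreated or given the cytokine IL-1β for 6 h, with 3 libraries in each of the 8 groups and 24 in all. The KO line and both clones lack LKB1. WT and KO are immortalised (3T3) lines, with 1 line for each genotype, and the clones were each grown from a single cell after Cas9 cutting of Crtc2 in the KO line, so that genotype cannot be told apart from the line or the clone. Nothing in the labels says whether libraries of a group came from separate cultures, so the p-values measure only the spread between these libraries, which may be technical.

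Counts on genes ran from 38842901 to 48594394 in a library (median 42431965). Stk11 was at 83.4 to 87.9 CPM (counts per 1000000 counts of the library, after TMM scaling of library sizes) in the 6 WT libraries and at 16.3 to 23.2 in the 18 others, and Crtc2 was at 41.1 to 56.4 in the clones against 79.1 to 84.6 in the KO line, so reads from both targeted genes remained in the knockout libraries. Of 12 fibroblast markers, 10 were tested and their summed level lay between 5974 and 10754 CPM in every library, while Thy1 had 3 counts or fewer throughout. Single members of that list moved far between the untreated WT and KO groups, in means from 780 to 63.0 CPM for Col1a2, from 4.58 to 342 for Pdgfra, from 0.411 to 218 for Dcn and from 640 to 2014 for Fn1. Cdh5, Emcn, Ptprc, Adgre1, Cd3e, Itgam, Krt5, Esrp1, Myod1, Myog and S100b, which mark endothelial, blood, epithelial, muscle and glial cells, never exceeded 3 counts. Other members of these lists were detected. Acta2, a smooth muscle actin, went from a mean of 546 CPM in untreated WT to 15.8 in KO cells and made up nearly the whole of the muscle list in those groups, while Des, Cnn1 and Myh11 stayed under 2 CPM in every group mean. The summed endothelial list was at 0.370 to 0.678 CPM in WT and 2.40 to 3.07 in KO libraries, mostly Kdr, the summed neural list at 0.630 to 0.889 and 4.80 to 11.9, mostly Tubb3 in KO cells, and the leukocyte list, mostly Cd68, at 2.44 to 5.04 and 2.91 to 4.80. Epithelial markers summed to 0.207 to 0.782 and 0.288 to 0.464 CPM. Against the untreated KO means, those of DKO_A1 and DKO_A2 were 28.6 and 22.5 CPM for Dcn, 246 and 128 for Col1a2, and 22.9 and 1.99 for Acta2, and with IL-1β Dcn was at 547 CPM in KO cells. The part of these genes in the contrasts of the lines and of treatment was not tested.

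Wnts are lipid-modified secreted proteins that bind Frizzled receptors on the receiving cell. Together with the co-receptors LRP5 or LRP6 they stabilise beta-catenin, which drives transcription with TCF and LEF factors, and with other partners such as ROR2 they steer cell polarity and movement. Sfrp proteins carry a Frizzled-like domain and bind Wnts outside the cell, and Dkk proteins such as Dkk2 bind the LRP co-receptors. R-spondins keep Frizzled receptors on the surface by engaging LGR receptors and the ubiquitin ligases RNF43 and ZNRF3. In fibroblasts and other mesenchymal cells the pathway is known for its part in skeletal patterning, adipogenesis and fibrosis.

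Of the 41 genes, 27 had a promoter window in the RefSeq table for GRCm38.p6. The 250 bases before the start are printed for 4 genes on which the results turn: Sfrp2, with no count in WT cells, Dkk2, which differed in opposite directions between the clones, Fzd1, which was highest in the KO line, and Wnt10b, the most abundant ligand of untreated WT cells by length. Each is given on the strand of its gene, 5′ to 3′. Capitals mark TATAAA, the core of a TATA box, or the short core of the site that CREB binds, which reads TGACG on one strand and, on the other, its reverse complement CGTCA.
Sfrp2, chr3:83766071-83766320, plus strand: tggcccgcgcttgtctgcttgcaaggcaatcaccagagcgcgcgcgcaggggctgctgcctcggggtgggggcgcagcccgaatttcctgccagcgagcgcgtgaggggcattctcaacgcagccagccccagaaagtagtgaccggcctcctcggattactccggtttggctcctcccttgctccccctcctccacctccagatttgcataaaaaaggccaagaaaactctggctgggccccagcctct
Dkk2, chr3:132085042-132085291, plus strand: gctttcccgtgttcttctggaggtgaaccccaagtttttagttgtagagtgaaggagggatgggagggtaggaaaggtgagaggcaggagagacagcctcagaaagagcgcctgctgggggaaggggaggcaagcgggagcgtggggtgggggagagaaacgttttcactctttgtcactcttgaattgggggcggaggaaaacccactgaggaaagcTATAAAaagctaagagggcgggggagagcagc
Fzd1, chr5:4758217-4758466, minus strand: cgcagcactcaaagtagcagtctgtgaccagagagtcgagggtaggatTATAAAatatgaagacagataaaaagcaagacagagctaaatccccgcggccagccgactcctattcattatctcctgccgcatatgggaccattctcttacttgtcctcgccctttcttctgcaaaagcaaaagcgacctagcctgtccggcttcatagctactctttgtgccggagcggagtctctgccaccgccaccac
Wnt10b, chr15:98778151-98778400, minus strand: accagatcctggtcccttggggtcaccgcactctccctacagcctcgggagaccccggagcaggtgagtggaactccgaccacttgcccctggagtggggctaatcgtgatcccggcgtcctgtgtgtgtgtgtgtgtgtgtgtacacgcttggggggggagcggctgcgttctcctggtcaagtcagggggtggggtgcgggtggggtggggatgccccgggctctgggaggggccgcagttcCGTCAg

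The windows of Sfrp2, Dkk2 and Wnt10b end at the base before the gene start in the GENCODE annotation, and that of Fzd1 ends 181 bases upstream of it. Searched on both strands in the 250 bases, TATAAA began 32 bases before the RefSeq start of Dkk2 and 202 bases before that of Fzd1. TGACG was found 6 bases before the RefSeq start of Wnt10b, on the other strand. Among the 27 matched genes, TGACG was found in 4 (Wnt10b, Wnt11, Rspo4 and Sfrp5), against 17.8% of the 32851 windows of all genes. The full palindrome TGACGTCA, which contains TGACG on both strands, was in none of the 27 and in 1.55% of all windows. TATAAA was found in 4 (Dkk1, Dkk2, Fzd1 and Wnt11) and in 12.4% of all windows, and the GC box GGGCGG in 20 of the 27 and in 32.7% of all windows. A match says only that the letters are present.

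Expression was concentrated in a few receptors and modulators. Scaled to exon length and averaged over the 24 libraries, the highest levels were those of Fzd2 (20.8 CPM per kb), Fzd7 (10.9), Fzd1 (9.44), Sfrp2 (8.06) and Rspo3 (8.01). The highest ligands on the same scale were Wnt10b (2.63), Wnt10a (2.55) and Wnt5a (1.55). These averages span groups that differed widely: in untreated cells Wnt5a was at 5.62 CPM per kb in DKO_A1 and at 0.138 to 0.503 in the other groups, Sfrp2 had no count in WT, and the third ligand of WT cells was Wnt9a (2.13). Of the 26 tested genes, 13 had at least 10 counts in every library: Wnt5a, Wnt5b, Wnt7b, Wnt10a, Wnt10b, Fzd1, Fzd2, Fzd4, Fzd5, Fzd6, Fzd7, Fzd8 and Rspo3. Of the 15 genes not tested, 10 had 3 counts or fewer in every library (Wnt3a, Wnt8a, Wnt8b, Wnt9b, Fzd10, Sfrp5, Dkk1, Dkk4, Rspo1 and Rspo4), which at this depth allows a level of up to 0.060 to 0.078 CPM, depending on the library. The other 5 reached at most 9 (Wnt1), 16 (Wnt2), 17 (Wnt3), 8 (Wnt6) and 8 (Dkk3) counts. Dkk1, the best known inhibitor of its family, was thus not detected beyond a single count, and neither was Wnt3a.

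**Figure D1:**
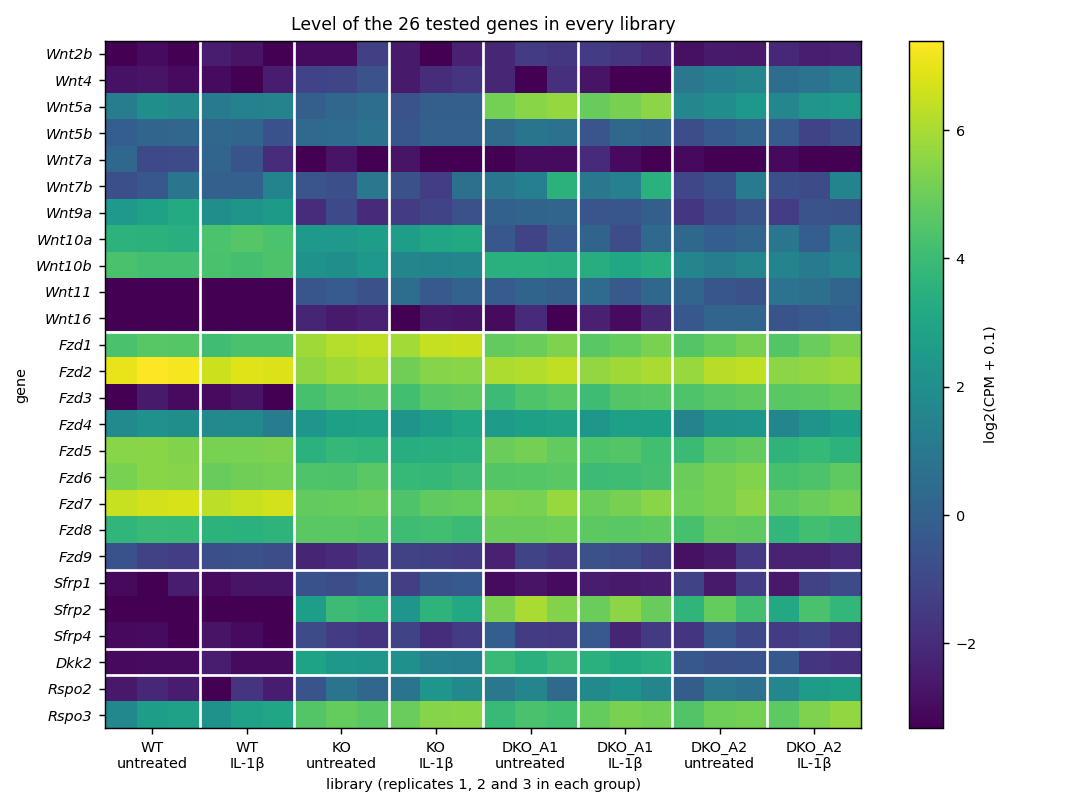
Level of the 26 tested genes in every library, as log2(CPM + 0.1). Rows are genes grouped by family, columns are the 3 libraries of each group, and the darkest blocks in the WT columns include Wnt11, Wnt16 and Sfrp2, which had no count in any WT library.

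Some Wnt genes lie next to each other on the chromosome, and the neighbours differed in level. Wnt10a, at chr1:74791516-74804179 on GRCm38, starts 6193 bases after the end of Wnt6 and reached 1008 counts in a library, whereas Wnt6 never exceeded 8. Wnt10b, at chr15:98770712-98778150, reached 887 counts and Wnt1, 11706 bases away on the opposite strand, reached 9. Wnt9a, at chr11:59306928-59333552, reached 354 counts, against 1 for Wnt3a, 16175 bases away. Wnt3 and Wnt9b, separated by 24328 bases, reached 17 and 3.

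The first question was how the loss of LKB1 went along with these genes in untreated cells. Fzd3, Sfrp2 and Dkk2 were expressed in KO cells and nearly or wholly missing from WT cells, Fzd1 and Rspo3 were also higher in KO cells, and the main WT receptors Fzd2, Fzd7, Fzd5 and Fzd6 and the ligands Wnt10b, Wnt10a, Wnt9a and Wnt5a were lower. At a Benjamini-Hochberg adjusted p below 0.05 in edgeR's quasi-likelihood test, which is what "called" means throughout, 14 of the 26 tested genes were called higher and 10 lower in KO than in WT cells. Over all 17522 tested genes, 30.1% were called higher and 25.8% lower, so most genes of these cells differed between the lines. Some of the 26 passed the filter only through the group where they were high and so had to differ: among the 13 with at least 10 counts in every library of both groups, 4 were called higher and 7 lower. The median log2 fold change of the 26 was 0.76, or 0.55 with the groups at 3 counts or fewer set to 3 counts per library, against 0.04 over all tested genes. In bulk RNA, fewer cells expressing a gene and less RNA per cell cannot be told apart.

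**Figure D2:**
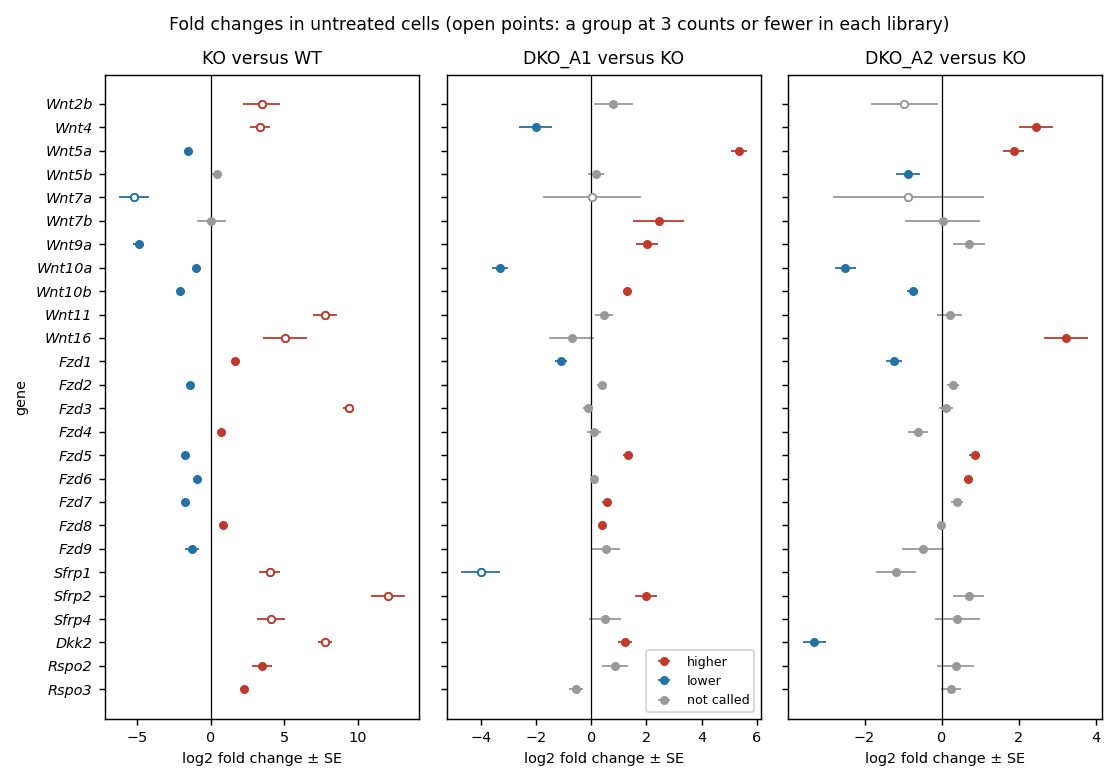
Log2 fold changes in untreated cells with their SE for the 26 tested genes, for KO against WT, DKO_A1 against KO and DKO_A2 against KO. Red and blue points were called higher and lower and gray ones were not called. Open points have 3 counts or fewer in each library of a group, and their fitted value depends on the prior count and is no measured fold.

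Among the ligands, Wnt10b, a beta-catenin-dependent Wnt that restrains adipogenesis, stood at 19.8, 18.03 and 18.3 CPM in the WT libraries and at 4.26, 3.97 and 5.14 in the KO libraries. The groups did not overlap, and the log2 fold change was -2.07 ± 0.13 (SE, adjusted p = 1.33e-11). Wnt9a, which acts in joint and skeletal development, was at 5.23, 6.86 and 9.23 CPM in WT and 0.158, 0.418 and 0.143 CPM in KO libraries, the steepest fall among ligands with a group mean of at least 1 CPM (-4.87 ± 0.37, adjusted p = 3.71e-10). Wnt5a, the prototype of the Wnts that signal through ROR2 without beta-catenin, was at 2.19, 3.91 and 3.18 CPM in WT and at 0.838, 1.04 and 1.36 in KO libraries (-1.52 ± 0.29, adjusted p = 0.000108). Wnt10a, a close relative of Wnt10b that acts in tooth and skin development, had a mean of 11.5 ± 0.837 CPM (SD, n = 3) in WT and 5.66 ± 0.359 in KO cells (-1.02 ± 0.24, adjusted p = 0.000877). Each of these 4 ligands was lower in every KO library than in any WT library.

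Other ligands were rare. Wnt7a was called lower with 50, 18 and 17 counts in the WT and 0, 2 and 0 in the KO libraries, a ratio of WT to KO of 43.4 (95% interval 11.7 to 364) that covers counting error only. Wnt11, which acts in cell movements of the embryo, had no count in any WT library and 0.634, 0.742 and 0.524 CPM in the KO libraries, at least 8.92-fold higher when WT is set to 3 counts per library. Wnt4 had 2, 2 and 1 counts in WT and 15, 16 and 24 in KO libraries, Wnt16 had none in WT and 5, 3 and 4 in KO, and both were called higher. Wnt2b was also called higher, but on 0, 1 and 0 counts in WT and 1, 1 and 13 in KO libraries. Its call rested on KO replicate 3, without which the log2 fold change was 1.22 (adjusted p = 0.504), and it was 0.02 (adjusted p = 0.959) when reads of both strands were counted. Wnt5b (0.977 ± 0.132 CPM in WT and 1.29 ± 0.165 in KO) and Wnt7b (0.969 ± 0.678 and 0.985 ± 0.736) were not called.

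Summed over all 19 Wnt genes and scaled to exon length, ligand transcripts came to 13.5 ± 0.251 CPM per kb (SD, n = 3) in untreated WT cells and 4.96 ± 0.59 in KO cells. Wnt10b made up 40.8% ± 2.33 of that sum in WT and 26.4% ± 1.16 in KO cells, and Wnt10a 34.6% ± 3.04 and 46.4% ± 2.44. Wnt10a and Wnt10b therefore provided most of the ligand transcripts of both lines.

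The receptors split within each branch of the family tree. Among the closely related Fzd1, Fzd2 and Fzd7, Fzd1 (chr5:4753839-4758035) was at 19.8, 24.5 and 23.6 CPM in WT libraries and 57.7, 72.7 and 81.3 CPM in KO libraries (1.64 ± 0.21, adjusted p = 1.18e-06). Fzd2 (chr11:102604396-102608058) moved the other way, from 129.8, 168 and 154 CPM in WT to 48.7, 57.5 and 65.1 CPM in KO libraries (-1.40 ± 0.15, adjusted p = 9.44e-08). Fzd7 (chr1:59482424-59486955) was likewise lower, at 27.8, 28.7 and 31.2 CPM in KO against 89.5, 101 and 107 in WT libraries (-1.76 ± 0.16, adjusted p = 5.14e-09). None of the 3 showed overlap between the lines.

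Fzd3 and Fzd6, the branch best known for planar cell polarity, also parted. Fzd3 (chr14:65192449-65262463) had 0, 3 and 1 counts in the WT libraries and 19.4, 23.8 and 25.3 CPM in the KO libraries, a ratio of 721 (95% interval 281 to 2647) that covers counting error only (adjusted p = 9.85e-15). Fzd6 fell from a mean of 42.1 ± 3.84 to 22.5 ± 2.33 CPM (-0.91 ± 0.11, adjusted p = 5.79e-07). In the branch of Fzd5 and Fzd8, Fzd5 was at 44.2, 45.1 and 41.5 CPM in WT and 11.3, 13.9 and 13.02 CPM in KO libraries (-1.77 ± 0.15, adjusted p = 2.42e-09), whereas Fzd8 rose from 14.03 ± 0.878 to 24.6 ± 0.83 CPM (0.81 ± 0.11, adjusted p = 2.23e-06). Fzd4, which also receives the non-Wnt ligand norrin, was called higher (3.77 ± 0.454 to 6.13 ± 1.10 CPM) and its relative Fzd9 lower (0.389 ± 0.147 to 0.163 ± 0.0659 CPM), but Fzd4 lost its call without WT replicate 1 or 3 or KO replicate 2 or 3, and Fzd9 without WT replicate 1 or KO replicate 1 or 2, at adjusted p of up to 0.110 and 0.169.

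Per length, the Frizzled transcripts of untreated cells summed to 86.5 ± 8.39 CPM per kb in WT and 52.3 ± 6.27 in KO cells. Fzd2 took 47.4% ± 1.70 of the sum in WT cells and Fzd7 25.3% ± 1.25, while Fzd1 took 6.23% ± 0.0889. In KO cells Fzd1 took 32.05% ± 1.73 and Fzd2 29.8% ± 0.727, with Fzd1 above Fzd2 within each of the 3 libraries. Fzd3 supplied 3.41% ± 0.0996 of the KO sum and 0.00269% ± 0.00292 of the WT sum.

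**Figure D3:**
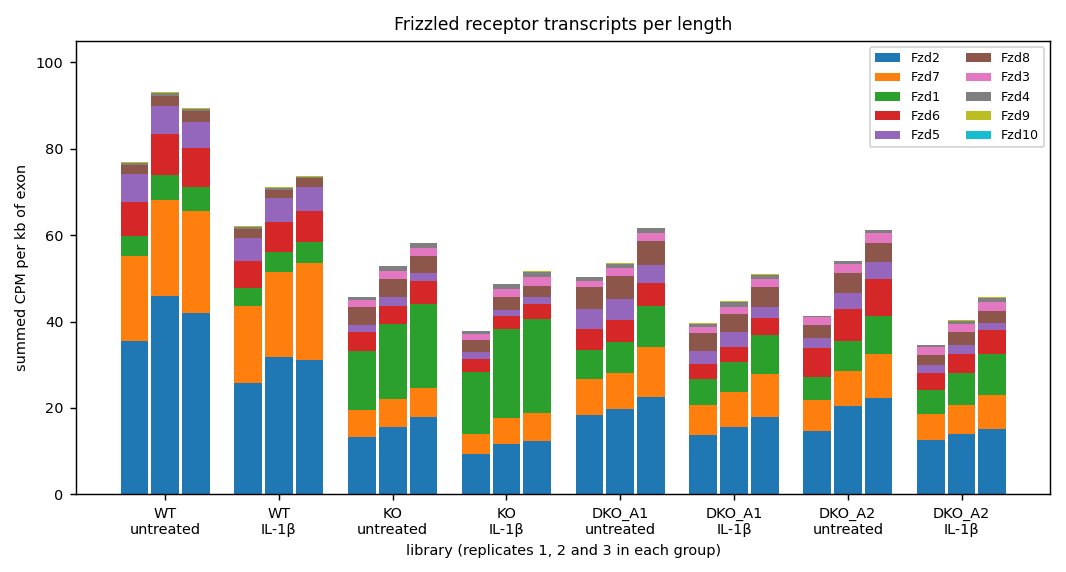
Frizzled transcripts in each library, in CPM per kb of exon, stacked by receptor. The WT bars of untreated cells reach 77.0 to 93.0 and are mostly Fzd2 and Fzd7, the KO bars reach 45.7 to 58.2, and the green segment, Fzd1, is widest in the KO bars.

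All 6 tested secreted modulators were called higher in KO cells, against 30.1% of all tested genes, although 4 of them (Sfrp1, Sfrp2, Sfrp4 and Dkk2) had 3 counts or fewer in every WT library and passed the filter through other groups. Rspo2 reached at most 9 counts in a WT library, so Rspo3 alone had at least 10 in every library of both lines. The count of 6 was thus largely set by the filter. Sfrp2 (chr3:83766321-83774316), a Wnt-binding decoy, had no count in any of the 6 WT libraries and stood at 6.18, 16.1 and 14.1 CPM in untreated KO libraries, at least 169.9-fold higher with WT set to 3 counts per library. Dkk2 (chr3:132085292-132180304), an LRP5 and LRP6 ligand that can inhibit or activate, had 1, 1 and 1 counts in the WT libraries and 7.31, 5.08 and 5.0 CPM in the KO libraries, a ratio of 245 (95% interval 83.6 to 1193), for counting error only. Rspo3 (chr10:29452416-29535867), a potent enhancer of Wnt signals, was at 3.15, 6.26 and 6.86 CPM in WT and 22.8, 29.3 and 25.02 CPM in KO libraries (2.25 ± 0.28, adjusted p = 6.21e-07). Its relative Rspo2, with 3, 6 and 3 counts in the WT libraries, was at 0.067, 0.138 and 0.0782 CPM in WT and 0.589, 1.62 and 1.05 CPM in KO libraries (3.48 ± 0.68, adjusted p = 0.000176). Sfrp1 and Sfrp4 were called higher at low levels, 0.558 ± 0.0788 and 0.315 ± 0.123 CPM in KO cells, from at most 3 counts in any WT library. None of the 6 overlapped between the lines, which held for 24 of the 26 tested genes. For the 4 at 3 counts or fewer in WT this followed largely from the filter. The share of all genes without overlap was not counted.

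With IL-1β present in both lines, 12 genes were called higher and 9 lower in KO than in WT cells, against 30.2% and 27.1% of all tested genes. Among the 15 with at least 10 counts in every library of both groups, 4 were called higher and 8 lower. Of the genes described in untreated cells, Fzd3 (17.6, 24.8 and 26.6 CPM in KO and 1, 2 and 0 counts in WT libraries), Sfrp2 (4.85, 12.4 and 8.76 CPM and no count) and Wnt10b (2.90, 2.76 and 2.95 and 19.6, 18.6 and 21.3 CPM) differed in the same directions. Wnt2b, Wnt16 and Fzd9 were called in untreated cells and not here, and no gene was called here alone. The median of the 26 log2 fold changes was 0.43, but -0.14 with groups at 3 counts or fewer set to that floor, and 0.03 over all genes. With the replicate number as a block, Wnt7b was also called lower (-1.07 ± 0.27, adjusted p = 0.00117).

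Other genes of the pathway were taken from lists chosen by function, with earlier results of these data known. The counts of genes called in KO against WT cells in these lists stand against 30.1% higher and 25.8% lower of all tested genes. Of 13 co-receptors and other receptors, 11 were tested, 5 were called higher and 2 lower in untreated KO cells, and the median log2 fold change was 0.63 against 0.04 over all genes. Ror2, a receptor for Wnt5a, went from 25.3 ± 0.975 to 169 ± 26.7 CPM (2.74 ± 0.16, adjusted p = 6.94e-12). Ror1 rose by 4.44 ± 0.46, Ptk7, a polarity co-receptor, by 1.38 ± 0.09, and the co-receptor Lrp5 by 0.75 ± 0.12 on the log2 scale. Kremen1, a receptor for Dkk proteins, was lower, from 76.6 ± 5.73 to 19.4 ± 3.07 CPM. Of 16 genes of Wnt secretion and other extracellular modulators, 8 were tested, 5 were called higher and 2 lower (median 0.88, or 0.50 with low groups at the floor). Trabd2b, a metalloprotease that cleaves Wnts, went from 1.13 ± 0.241 to 25.7 ± 5.20 CPM, and Porcn, the acyltransferase that lipid-modifies Wnts, from 1.14 ± 0.106 to 3.18 ± 0.396 CPM. The heparan sulfate proteoglycan Sdc1 was higher (1.23 ± 0.11), and Gpc4, a glypican, was lower (-2.07 ± 0.20). Frzb was called with no count in WT and 0.0472 ± 0.0632 CPM in KO cells, a level too low for a fold.

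All 26 intracellular transducers were tested, and 9 were called higher and 7 lower in KO cells, with a median of 0.04, as over all genes. Lef1 and Tcf7, DNA-binding partners of beta-catenin, went from 0.219 ± 0.0617 to 10.6 ± 1.03 CPM and from 6.83 ± 0.469 to 26.1 ± 0.868 CPM. Pygo1, a coactivator, had no count in WT and 1.39 ± 0.324 CPM in KO cells, Tle2, a corepressor, rose by 2.05 ± 0.18, and Tle4, another, changed by -2.29 ± 0.16. Of 17 known targets of beta-catenin, 15 were tested, with 8 called higher and 6 lower (median 0.52, or 0.26 with low groups at the floor). This list shares Lef1, Tcf7 and Axin2 with the transducers, Lgr5, Rnf43 and Znrf3 with the receptors, and Notum with the secretion genes. The counts of the lists are therefore not independent. Besides Lef1 and Tcf7, which are also in the list of transducers, the rule for named genes gave Bambi (0.114 ± 0.0608 to 1.14 ± 0.263 CPM) and also Tnfrsf19 and Nkd1, each with no count in WT and a mean under 0.1 CPM in KO cells, levels too low for a fold. Axin2, a negative regulator much used as a readout of the pathway and named here after its values were seen, went from 0.893 ± 0.189 to 0.386 ± 0.0793 CPM (-1.21 ± 0.33, adjusted p = 0.00325). Of 10 planar cell polarity genes, 9 were tested, 7 were called higher and 1 lower (median 1.75, and the same with low groups at the floor). Prickle2 and Celsr2, at 3 counts or fewer in each untreated WT library, passed the filter through other groups. Prickle2 went from no count to 8.40 ± 1.41 CPM, Vangl2 from 3.82 ± 0.509 to 19.5 ± 2.99 CPM, Celsr1 from 1.92 ± 0.348 to 6.50 ± 1.38 CPM and Daam2 from 0.711 ± 0.179 to 4.08 ± 0.269 CPM, while Celsr2 was called at 3 counts or fewer in each WT library.

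The second question was what the additional loss of CRTC2 went along with, for which each clone was compared with the KO line. Both comparisons use the same KO libraries, which by itself favours calls in the same direction. How often all tested genes were called the same way, or opposite ways, in both clones was not counted. In untreated cells, 9 of the 26 genes were called higher in DKO_A1 than in KO cells and 4 lower, against 18.9% and 16.4% of all tested genes. In DKO_A2, 5 were called higher and 5 lower, against 17.1% and 15.1%. The calls went the same way in both clones for 4 genes: Fzd5 and Wnt5a were higher, and Wnt10a and Fzd1 were lower. They went opposite ways for 3 genes, Wnt4, Dkk2 and Wnt10b. A further 6 genes were called in DKO_A1 alone (Sfrp1, Fzd8, Fzd7, Sfrp2, Wnt9a and Wnt7b) and 3 in DKO_A2 alone (Wnt16, Fzd6 and Wnt5b). The Wnt5b call was lost without DKO_A2 replicate 1 or 2 or KO replicate 2 or 3, at adjusted p of up to 0.134. With the replicate number as a block, 11 genes were called higher and 5 lower in DKO_A1, against 25.6% and 22.5% of all genes, and 8 and 7 in DKO_A2, against 24.5% and 21.4%. The genes added in DKO_A1 were Fzd2 (0.38 ± 0.06), Rspo2 (0.89 ± 0.30) and Rspo3 (-0.56 ± 0.12), and in DKO_A2 Fzd2 (0.28 ± 0.06), Fzd7 (0.38 ± 0.07), Sfrp2 (0.70 ± 0.16), Fzd4 (-0.62 ± 0.18) and Sfrp1 (-1.18 ± 0.46). Calls then went the same way in both clones for 8 genes, with Fzd2, Fzd7, Sfrp1 and Sfrp2 joining the former 4, and opposite ways for the same 3. The block left Fzd8, Wnt9a, Wnt7b, Rspo2 and Rspo3 called in DKO_A1 alone and Wnt16, Wnt5b, Fzd6 and Fzd4 in DKO_A2 alone. The median log2 fold change of the 26 was 0.42 in DKO_A1 and 0.15 in DKO_A2, against 0.02 over all genes in each.

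Fzd1, the receptor most raised in KO cells by level, stood at 27.9, 30.8 and 39.9 CPM in DKO_A1 and 23.1, 29.1 and 37.1 CPM in DKO_A2 libraries, below the 57.7, 72.7 and 81.3 of the KO libraries. The log2 fold changes were -1.10 ± 0.21 in DKO_A1 (adjusted p = 0.00031) and -1.25 ± 0.21 in DKO_A2 (adjusted p = 0.000117). Both clones lay closer to the WT range of 19.8 to 24.5 than to that of the KO line. The share of Fzd1 in the Frizzled sum per length was 14.1% ± 1.14 and 13.5% ± 0.809 in the clones, against 32.05% ± 1.73 in KO cells. Fzd5, lower in KO than in WT cells, was higher in the clones again, at 31.7, 35.1 and 28.2 CPM in DKO_A1 (1.31 ± 0.15, adjusted p = 1.04e-06) and 15.6, 25.2 and 28.4 CPM in DKO_A2 libraries (0.85 ± 0.15, adjusted p = 0.00019).

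Wnt10a (chr1:74791516-74804179) was lower in both clones than in the KO line. It stood at 5.41, 5.50 and 6.07 CPM in KO libraries, 0.658, 0.36 and 0.689 CPM in DKO_A1 and 1.13, 0.81 and 1.03 CPM in DKO_A2. The log2 fold changes against KO were -3.30 ± 0.29 (adjusted p = 3.71e-08) and -2.51 ± 0.27 (adjusted p = 5.62e-07). Its share of the Wnt sum per length was 2.05% ± 0.734 in DKO_A1 and 11.9% ± 2.87 in DKO_A2, against 46.4% ± 2.44 in KO cells.

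Wnt5a (chr14:28504750-28527448) was called higher in both clones at very different levels. It was at 0.838, 1.04 and 1.36 CPM in KO libraries, 35.9, 44.9 and 51.1 CPM in DKO_A1 (5.35 ± 0.28, adjusted p = 2.49e-11) and 3.002, 3.70 and 5.11 CPM in DKO_A2 (1.87 ± 0.28, adjusted p = 3.10e-05). In DKO_A1 it made up 49.1% ± 2.36 of the Wnt sum per length, and that sum was 11.5 ± 2.09 CPM per kb, against 3.43 ± 0.612 in DKO_A2. The level in DKO_A2 was near the WT range of 2.19 to 3.91 CPM.

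Dkk2, Wnt10b and Wnt4 set the clones apart. Dkk2 was at 14.8, 11.1 and 14.7 CPM in DKO_A1 libraries, above the KO line (1.22 ± 0.25, adjusted p = 0.000635), and at 0.665, 0.532 and 0.55 CPM in DKO_A2, below it (-3.30 ± 0.30, adjusted p = 6.40e-08). Wnt10b, at 11.2, 11.2 and 10.7 CPM in DKO_A1 and 2.92, 2.15 and 2.84 CPM in DKO_A2, went 1.30 ± 0.13 and -0.75 ± 0.13 from the KO line (adjusted p = 1.27e-07 and 0.000195). Wnt4, which acts in kidney and gonad development, had 5, 0 and 8 counts in the DKO_A1 libraries and was at 1.81, 2.36 and 2.82 CPM in DKO_A2 (2.44 ± 0.44, adjusted p = 0.000224). These genes therefore gave no direction common to the CRTC2 knockout clones.

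Sfrp2 was higher in DKO_A1, at 38.2, 64.8 and 41.6 CPM, than in KO libraries (1.99 ± 0.41, adjusted p = 0.000989). In DKO_A2 it was at 12.8, 28.7 and 17.8 CPM, overlapping the KO range (0.70 ± 0.40, adjusted p = 0.204), and with the replicate number as a block it was called there too (adjusted p = 0.00127). Fzd3 stayed high in the clones, at 16.4, 21.4 and 25.05 and 21.5, 24.9 and 27.3 CPM, and was not called against KO in either (-0.12 ± 0.18 and 0.10 ± 0.18). Wnt7b was called higher in DKO_A1 (2.44 ± 0.93, adjusted p = 0.046) on 1.73, 2.38 and 11.9 CPM, and without DKO_A1 replicate 3 its adjusted p was 0.442. It was higher in DKO_A1 than in KO at every replicate number, and with the block the change was 2.24 ± 0.23 (adjusted p = 4.29e-08). Replicate 3 was the highest of the 3 Wnt7b values in all 8 groups. Fzd7 was called higher in DKO_A1 at 0.56 ± 0.16 but not without its replicate 3 (adjusted p = 0.0790).

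**Figure D4:**
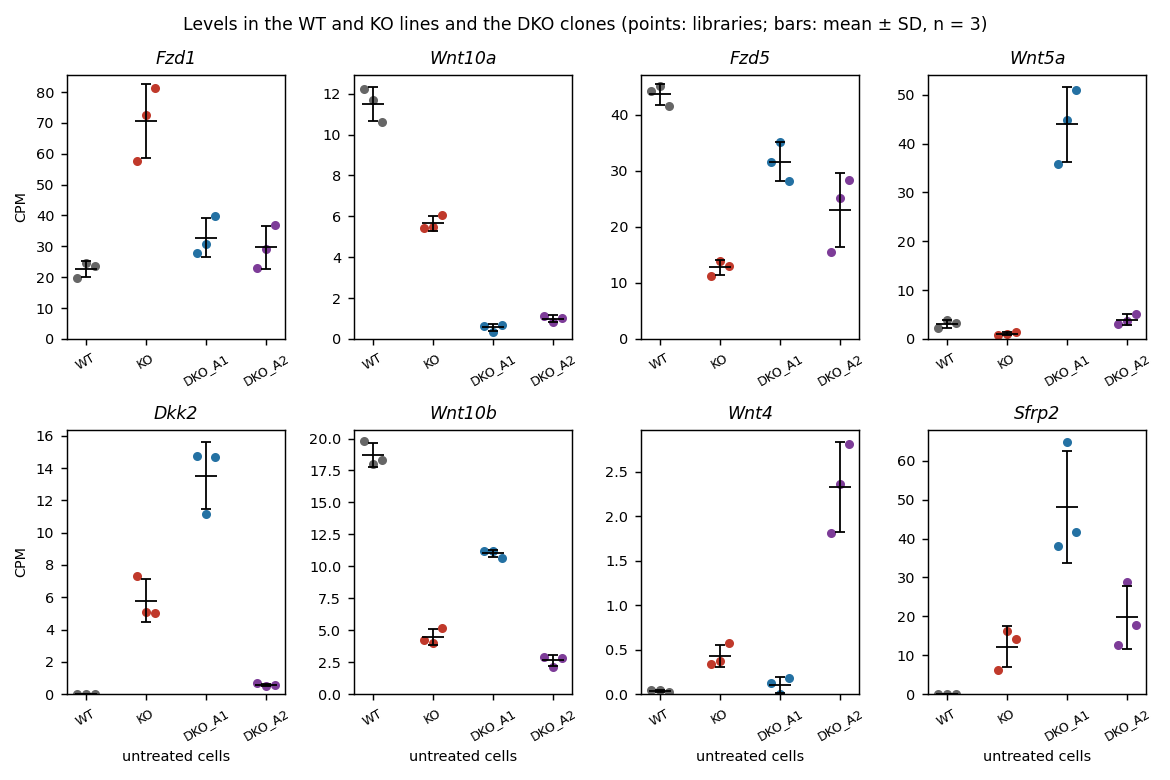
Levels of 8 genes in untreated cells, in CPM. Points are libraries and bars give the mean and SD of 3 libraries. Fzd1 and Wnt10a are lower in both clones than in KO cells, Fzd5 and Wnt5a are higher, and Dkk2, Wnt10b and Wnt4 part between DKO_A1 and DKO_A2.

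Compared directly in untreated cells, DKO_A2 had 5 of the 26 genes called higher and 9 called lower than DKO_A1, against 15.8% and 16.7% of all tested genes. The largest differences were those of Dkk2 (-4.53 ± 0.31), Wnt4 (4.46 ± 0.54), Wnt16 (3.93 ± 0.63) and Wnt5a (-3.48 ± 0.25). In the untreated DKO_A1 libraries Wnt4 had 5, 0 and 8 counts and Wnt16 had 1, 6 and 0, so both values rest on few reads. With the block, 7 were called higher and 10 lower, against 23.1% each way of all genes, and the genes added were Wnt10a (0.80 ± 0.32), Fzd3 (0.24 ± 0.09) and Wnt7b (-2.30 ± 0.23). The clones carry the same targeted gene, so these differences are between clones and not between genotypes as labelled.

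With IL-1β, 9 genes were called higher and 4 lower in DKO_A1 than in KO cells, against 19.4% and 17.3% of all genes. In DKO_A2, 4 were called higher and 3 lower, against 17.1% and 15.8%. With the replicate number as a block the counts became 11 and 4 in DKO_A1, against 25.8% and 23.3% of all genes, and 9 and 5 in DKO_A2, against 24.4% and 22.1%. The block added Wnt9a (0.87 ± 0.28) and Fzd6 (0.22 ± 0.07) in DKO_A1, and in DKO_A2 it added Fzd2, Fzd3, Fzd7, Sfrp2 and Rspo2 as higher (0.22 to 0.71) and Fzd4 (-0.48 ± 0.17) and Fzd9 (-1.32 ± 0.52) as lower. Wnt5a was higher in both treated clones, at 29.9, 36.7 and 45.5 and 2.98, 4.67 and 5.51 CPM against 0.576, 0.852 and 0.84 CPM in KO libraries. Wnt10a, at 1.01, 0.483 and 1.17 and 1.72, 0.807 and 1.98 CPM, was lower than the 6.19, 7.77 and 8.95 of the KO line, and Fzd1, at 25.2, 29.2 and 38.03 and 23.1, 31.1 and 40.4 CPM, was lower than 60.2, 86.8 and 92.1. Dkk2 and Wnt4 again went opposite ways. The Wnt4 call in treated DKO_A1 rested on 2, 0 and 0 counts, against 3, 8 and 9 in the treated KO libraries. It was lost without treated DKO_A1 replicate 2 or 3 or treated KO replicate 3, at adjusted p of up to 0.0787. Fzd5 was called higher in treated DKO_A1 (0.98 ± 0.15, adjusted p = 3.48e-05) and not in treated DKO_A2 (0.32 ± 0.15, adjusted p = 0.126).

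The counts of the pathway lists in the clones stand against 18.9% of all tested genes called higher and 16.4% lower in DKO_A1, and 17.1% and 15.1% in DKO_A2. Of the targets of beta-catenin, 11 of the 15 tested were called higher and 1 lower in untreated DKO_A1 than in KO cells (median 0.77), and 6 higher and 3 lower in DKO_A2 (median 0.20), against 0.02 over all genes in each. Axin2 rose in DKO_A1 by 3.99 ± 0.31 (adjusted p = 5.02e-09) and in DKO_A2 by 0.90 ± 0.33 (adjusted p = 0.041). Nkd1, another feedback inhibitor, was called higher in DKO_A1 at a mean of 0.627 ± 0.358 CPM, against 0.070 ± 0.025 in KO cells, which is about the level of 3 counts. Bambi was lower in both, at -2.20 ± 0.37 and -1.71 ± 0.35. Of the co-receptors, 4 were called higher and 3 lower in DKO_A1 and 2 and 1 in DKO_A2. For the transducers the counts were 5 and 6 in DKO_A1 and 9 and 4 in DKO_A2, for the secretion genes 4 and 2 in DKO_A1 and 2 and 2 in DKO_A2, and for the polarity genes 3 and 1 in DKO_A1 and 2 and 3 in DKO_A2.

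The last question was the response to IL-1β, an inflammatory cytokine that acts through NF-κB and MAP kinases. The genes called in at least 1 line were Wnt10a and Rspo2, which were higher after treatment, and Fzd5, Fzd6, Fzd8, Wnt10b and Dkk2, which were lower. Of the 26, the number called higher and lower after 6 h was 1 and 0 in WT, 0 and 4 in KO, 0 and 2 in DKO_A1 and 1 and 3 in DKO_A2. Over all genes the shares were 1.53% and 0.731% in WT, 2.65% and 2.09% in KO, 1.2% and 0.788% in DKO_A1, and 2.81% and 2.86% in DKO_A2. With the replicate number as a block the members' counts rose to 1 and 3, 2 and 6, 2 and 4, and 3 and 6, and so did the shares over all genes, to 4.7% and 4.59% in WT, 5.77% and 9.07% in KO, 3.68% and 5.94% in DKO_A1, and 7.27% and 10.6% in DKO_A2. Besides those described with their genes in what follows, the block added Wnt9a in WT (-0.57 ± 0.18), Wnt4 in KO (-1.47 ± 0.46), and Wnt11 (0.91 ± 0.27), Fzd7 (-0.30 ± 0.07) and Sfrp2 (-0.48 ± 0.16) in DKO_A2. The median log2 fold change of the 26 was -0.06 in WT (0.05 with low groups at the floor), -0.28 in KO, -0.14 in DKO_A1 and 0.05 in DKO_A2.

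Wnt10a was the gene called in WT cells. It rose from 12.2, 11.7 and 10.6 to 20.4, 23.5 and 20.7 CPM (0.90 ± 0.23, adjusted p = 0.039), with no overlap. It lost its call in the fit without any single WT library, at adjusted p from 0.0736 to 0.163. In KO cells it was at 5.41, 5.50 and 6.07 untreated and 6.19, 7.77 and 8.95 CPM treated (0.43 ± 0.24, adjusted p = 0.434), also without overlap.

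Fzd6 was called lower in the 3 LKB1-deficient lines. It went from 21.4, 20.9 and 25.2 to 14.4, 13.9 and 16.2 CPM in KO cells (-0.60 ± 0.11, adjusted p = 0.00208) and from 31.8, 36.2 and 40.6 to 19.5, 20.9 and 26.2 CPM in DKO_A2 (-0.71 ± 0.11, adjusted p = 0.000314). In DKO_A1 the change was -0.48 ± 0.11 (adjusted p = 0.0289) and the call held only without the treated replicate 3, being lost without each of the other 5 libraries. In WT cells, at 37.8, 44.9 and 43.7 untreated and 29.97, 33.1 and 35.1 CPM treated, the change was -0.36 ± 0.11 (adjusted p = 0.111), and it was called with the replicate block (adjusted p = 0.000417). The groups did not overlap in any of the 4 lines.

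Fzd8 fell from 24.9, 25.2 and 23.7 to 16.8, 17.6 and 15.8 CPM in KO cells (-0.56 ± 0.11, adjusted p = 0.00316) and from 18.98, 27.9 and 26.5 to 13.6, 17.9 and 15.9 CPM in DKO_A2 (-0.63 ± 0.11, adjusted p = 0.000855). With the block it was called in DKO_A1 as well (-0.32 ± 0.09, adjusted p = 0.0316). Fzd5 was called lower in the clones alone, by -0.62 ± 0.15 in DKO_A1 (adjusted p = 0.0322) and -0.82 ± 0.15 in DKO_A2 (adjusted p = 0.00141). The DKO_A1 call was lost without untreated replicate 1 or 2 or treated replicate 1 or 3, and with reads of both strands counted (adjusted p = 0.0505). In a fit restricted to the compared groups the DKO_A2 calls of Fzd5 and Fzd8 were lost (adjusted p = 0.124 and 0.130). Fzd2, the receptor with the highest level per length over all libraries, though not in KO cells, was not called in any line, at -0.47 ± 0.15 in WT, -0.49 ± 0.15 in KO, -0.36 ± 0.15 in DKO_A1 and -0.46 ± 0.15 in DKO_A2, but with the block it was called lower in each of the 4, at adjusted p from 8.67e-06 to 0.000576. The Frizzled sum per length went from 86.5 ± 8.39 to 69.02 ± 6.11 CPM per kb in WT cells and from 52.3 ± 6.27 to 46.1 ± 7.28 in KO cells.

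Wnt10b and Dkk2 fell in KO cells. Wnt10b went from 4.26, 3.97 and 5.14 to 2.90, 2.76 and 2.95 CPM (-0.63 ± 0.13, adjusted p = 0.00534), a call lost without the untreated replicate 3 (adjusted p = 0.0512). Dkk2 went from 7.31, 5.08 and 5.0 to 4.08, 2.51 and 2.40 CPM (-0.95 ± 0.26, adjusted p = 0.035), a call lost without each KO library but the treated replicate 1, at adjusted p of up to 0.199, and with upper-quartile scaling (adjusted p = 0.0552). The fit restricted to the compared groups ended both calls (adjusted p = 0.0563 for Wnt10b and 0.0857 for Dkk2).

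Among the R-spondins, Rspo2 was called higher in DKO_A2. Rspo2 went from 0.806, 1.83 and 1.56 to 3.02, 5.78 and 6.68 CPM in DKO_A2 (1.89 ± 0.46, adjusted p = 0.0144), although the adjusted p was 0.0539 without the treated replicate 3 and 0.0576 in the fit restricted to the compared groups. In KO cells it was at 1.66, 4.86 and 3.41 CPM after treatment (1.61 ± 0.47, adjusted p = 0.0524), called with the block (adjusted p = 0.000335). With the block Rspo2 was also called in DKO_A1, and Rspo3 in KO (0.61 ± 0.12), DKO_A1 (0.96 ± 0.12) and DKO_A2 (0.36 ± 0.12). In WT cells Rspo2 had 3, 6 and 3 counts untreated and 0, 9 and 3 treated, and was not called (0.05 ± 0.98, adjusted p = 1).

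**Figure D5:**
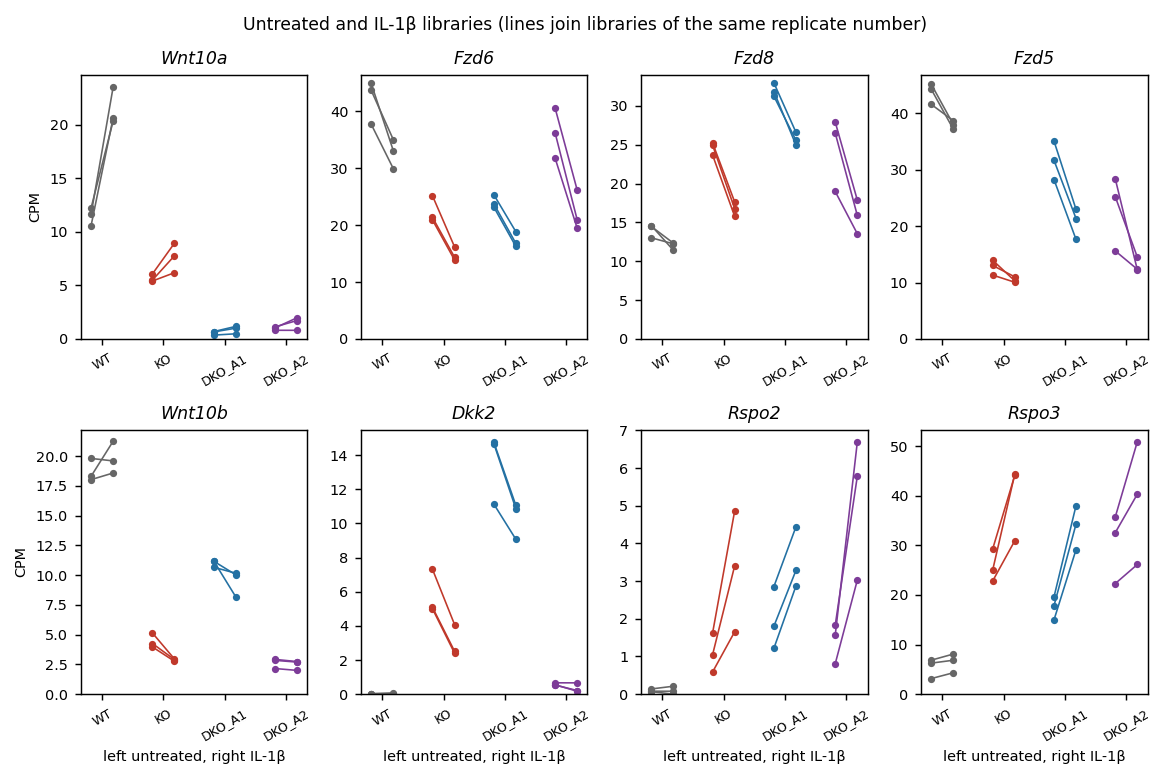
Levels of 8 genes without (left point) and with IL-1β (right point), in CPM. Lines join libraries that share a replicate number. Fzd6 and Fzd8 fall along every line, and Rspo3 rises along every line.

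Whether the response differed between lines was tested as an interaction. None of the 26 genes was called for KO against WT, for DKO_A1 against KO or for DKO_A2 against KO, where 0.245%, 0.0285% and 0% of all tested genes were. At an unadjusted p under 0.05 there were 3, 2 and 2 of the 26, against 985, 433 and 388 of all 17522 genes. The smallest unadjusted p for KO against WT was that of Wnt10b, whose response was -0.63 ± 0.13 in KO and 0.08 ± 0.12 in WT cells, a difference of -0.72 ± 0.18 (adjusted p = 0.149). DESeq2 called that gene alone (-0.68, adjusted p = 0.0233). With a block for replicate number inside each line, 5.72%, 1.52% and 1.04% of all genes were called in these 3 tests, and 6 of the 26 were called for KO against WT: Fzd1 (0.42 ± 0.06) with a higher response in KO cells, and Wnt10b (-0.71 ± 0.13), Wnt10a (-0.48 ± 0.14), Fzd6 (-0.24 ± 0.06), Fzd8 (-0.33 ± 0.09) and Wnt7b (-1.05 ± 0.28) with a lower one. In the same fit Fzd1 was called for DKO_A1 against KO (-0.26 ± 0.06, adjusted p = 0.0281). The calls of Fzd5 in the clones alone thus do not show that the lines responded differently.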

How the data were processed

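The 24 libraries, made from total RNA of MEFs, were sequenced as 50 bp read pairs. The labels name an mRNA-Seq kit and the methods of the study a kit with rRNA depletion, and which was used is not known here. Reads were trimmed with Trim Galore 0.6.0 and aligned with STAR 2.7.8a to GRCm38 with GENCODE annotation, which counted read pairs per gene. The authors deposited these counts as whole numbers per gene, not normalized, and the column for second-strand reads (95.5 to 96.0% of the stranded counts) was used here. Lines that name no gene, 26.7 to 34.4% of the total, were left out. Symbols and positions came from GENCODE annotation of the same build, which matched 55230 of 55471 gene identifiers. The 41 genes were selected by symbol, and they and the lists of pathway and marker genes were chosen with earlier results of these data known.

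Counts were analysed in R 4.3.3 with edgeR 4.0.16: a filter (filterByExpr, count minimum 10), TMM scaling, 1 quasi-likelihood fit of the 8 groups over 17522 genes, and Benjamini-Hochberg adjustment over all of them at 0.05. CPM are counts per 1000000 of the TMM-scaled library size, and CPM per kb are divided by the length of the merged exons. Intervals of ratios are exact binomial and, like limits from 3 counts, cover counting error only. No pair of libraries within a group agreed within sampling noise (chi-square per degree of freedom 7.42 to 107 over 24 pairs). Pairs with replicate 1 stood at 37.7 to 107 and pairs of replicates 2 and 3 at 7.42 to 18.7. The share of counts that name no gene was also highest in replicate 1 of each group. The fit was also run on simulated counts with known changes, and the outcome is not given here.

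Genes named with values for each library were the 6 highest and 6 lowest fold changes of KO against WT and the 3 highest and 3 lowest of each clone against KO among called genes with groups that did not overlap and a group mean of at least 1 CPM, up to 5 called genes of each IL-1β response and response difference by p, and the 5 highest levels by length; of each pathway list, up to 5 called genes with the largest changes were named.

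Libraries that share a replicate number deviated together. Over the 11355 genes with a mean log2 CPM above 1, all 84 correlations between same-numbered libraries of different groups were over 0.1 (0.122 to 0.743, median 0.445), and 24 of 24 libraries were closest to their own number. Over all 17522 tested genes they ran from 0.0355 to 0.589, and 69 of 84 were over 0.1. The number was taken to pair the libraries, and fits with it as a block are given where they change a call. Alternatives were DESeq2 size factors, upper-quartile scaling, unstranded counts, no filter, the replicate block, DESeq2 1.42.0, a fit restricted to the compared groups, and omission of each library in turn.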

Additional observations from a re-analysis of the deposited data

Results flagged for a closer look

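The effects of the clones relative to the KO line differed, by the direct test of DKO_A2 against DKO_A1 in untreated cells, for 14 of the 26 tested genes, 5 higher and 9 lower, where 15.8% and 16.7% of all tested genes were called, and for 17 with the replicate number as a block, where 23.1% were called each way (log2 fold change ± SE, edgeR with Benjamini-Hochberg adjusted p below 0.05). Lower in DKO_A2 were Dkk2 (-4.53 ± 0.31), Wnt5a (-3.48 ± 0.25), Wnt10b (-2.06 ± 0.13), Wnt9a (-1.30 ± 0.36), Sfrp2 (-1.29 ± 0.40), Wnt5b (-1.05 ± 0.30), Fzd4 (-0.69 ± 0.26), Fzd5 (-0.46 ± 0.15) and Fzd8 (-0.39 ± 0.11). Higher in DKO_A2 were Wnt4 (4.46 ± 0.54), Wnt16 (3.93 ± 0.63), Sfrp1 (2.83 ± 0.78), Rspo3 (0.79 ± 0.26) and Fzd6 (0.59 ± 0.11). The Sfrp1 value rests on 1, 2 and 1 counts in the DKO_A1 libraries and is no measured fold, and the groups overlapped for Fzd5. The Wnt4 and Wnt16 values rest on 5, 0 and 8 and on 1, 6 and 0 counts in the DKO_A1 libraries. Leaving out 1 library of a clone ended the call of Fzd4 (any library but DKO_A2 replicate 3), Rspo3 (DKO_A1 replicate 1 or 3, DKO_A2 replicate 2 or 3), Sfrp2 (DKO_A1 replicate 2, DKO_A2 replicate 1 or 3) or Fzd5 (DKO_A1 replicate 2, DKO_A2 replicate 1).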

How the results depend on the processing

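The number of genes called in KO against WT stayed within 1.5 times its value under every alternative tried, as did those of the clones against KO and of DKO_A2 against DKO_A1, with 1 exception: for DKO_A2 against KO with IL-1β, 7 became 11 with no filter and 14 with the replicate block. Leaving out 1 library gave 21 to 24 calls for KO against WT untreated and 20 to 22 with IL-1β. The IL-1β responses were less stable. For WT, 1 became 3 with DESeq2, with no filter and with upper-quartile scaling, 4 with the replicate block, and 0 to 0 without each library. For KO, 4 became 7 with DESeq2, 9 with no filter, 8 with the block and 2 to 5 without a library. For DKO_A1, 2 became 6 with no filter, 4 in a fit restricted to the compared groups, 6 with the block, 1 with unstranded counts and 0 to 1 without a library. For DKO_A2, 4 became 8 with no filter, 1 in a fit restricted to the compared groups and 9 with the block. For the response difference of KO and WT, 0 became 1 with DESeq2 and 6 with the block within each line, and for DKO_A1 and KO, 0 became 1 with that block. The causes were not tested. The replicate block added 44 calls over all contrasts, lost 0 and changed no other call. Of 442 alternative values for the 34 named results, 413 kept direction and side of the threshold. Another 29, all of them IL-1β responses, kept the direction but missed the threshold, and 0 reversed. The named results were chosen from the main fit by size of change or p, which by itself favours stable calls. Over all tested genes of these families, leaving out 1 library at a time lost 66 calls. These included contrasts of lines and clones, such as Wnt2b, Fzd4 and Fzd9 in untreated KO against WT and Wnt5b in untreated DKO_A2 against KO. Each DKO line is 1 clone, so no alternative here bears on how another clone of the same genotype would compare. Genes at 3 counts or fewer in a group have no measured fold.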
